A study of Homo sapiens with 2 samples.

Results

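Cadherins and protocadherins are the calcium-dependent adhesion proteins of the cadherin superfamily. The members were all protein-coding genes of the deposited table whose name begins with CDH and a digit or with PCDH, 89 of 19951 protein-coding genes and of 58735 rows. Of these, 36 are scattered over the genome and are called unclustered here, and 53 belong to the protocadherin clusters PCDHA (15 genes), PCDHB (16 genes) and PCDHG (22 genes) on chromosome 5. RNA was sequenced from U87MG, an established human glioblastoma cell line, grown for 1 week as glioma spheres in stem cell medium. Infected cells were selected with puromycin, 1 line infected with a TRIP13 shRNA and 1 with the control virus pGIPZ-CTRL, and each gave 1 library. The libraries are named here by their labels, shTRIP13 for the TRIP13 shRNA and shcon for the control. U87MG and the puromycin selection are shared by both libraries, and the labels describe the infected cells as stable clones without giving their number. With 1 library per group no difference below has a replicate check, no test was possible, and every value describes these libraries rather than the conditions.

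TRIP13, the gene targeted by the shRNA, stood at 23.1 FPKM in the library labelled shTRIP13 against 11.9 FPKM in the shcon library (1593 reads in shTRIP13 and 819 in shcon). FPKM relates the sequenced fragments of a gene to its exon length and to a library total. TRIP13 was thus higher in the library meant to have less of it, so every direction below is one between libraries as labelled, not one of a knockdown. The recovered totals were 19903836 reads in the library labelled shTRIP13 against 18871063 in the shcon library. The deposited values carry no correction for this depth ratio of 1.05. Of the glioma line markers, VIM stood at 427 FPKM in shTRIP13 against 442 in shcon, and CD44 at 112 FPKM in shTRIP13 against 115 in shcon. NES stood at 2.21 FPKM in shTRIP13 against 5.23 in shcon, and the glial filament gene GFAP was low in both at 0.119 FPKM in shTRIP13 against 0.392 in shcon.

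Cadherins join cells by binding partners of their own kind on the neighbouring cell through their extracellular repeats. Classical cadherins of type I and type II anchor to actin through beta-catenin, alpha-catenin and p120-catenin. Protocadherins lack that catenin link. The unclustered delta protocadherins act in cell sorting and axon outgrowth, and the clustered ones give neurons a surface identity. N-cadherin (CDH2) is the main classical cadherin of neural and mesenchymal cells, and glioma cells usually carry it in place of the epithelial E-cadherin (CDH1).

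The expressed repertoire was narrow, and the same 3 genes led it in both libraries. CDH13, CDH2 and PCDHGC3 together held 64.4% of the summed FPKM of all 89 members in the library labelled shTRIP13 and 62.8% in the shcon library. Of the 89 members, 59 had at least 1 read in the library labelled shTRIP13 against 66 in the shcon library, and 21 had none in either. Of all 58735 rows, 25143 had reads in shTRIP13 against 27172 in shcon, so the lower count is not particular to the members. A mean FPKM of 1 or more was reached by 9 members. Those were CDH13, CDH2, CDH24, CDH18, PCDH7, PCDH18, PCDHGC3, PCDHGA9 and PCDHGC5.

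Differences were first counted by a size rule, a log2 ratio of FPKM + 1 of at least 1 or at most -1 among those protein-coding genes whose FPKM averaged 1 or more. That rule called 2.17% of 10671 genes higher and 4.19% lower in the library labelled shTRIP13, 6.36% in either direction. The split was 1.30% higher and 5.15% lower with the median ratio set to 1, and 2.27% higher and 7.85% lower after rescaling to TPM. Of the 9 members, 0 were higher and 1 was lower, PCDH18, which passed the filter through its level in the shcon library. Because most members are weakly expressed, a read rule was used beside it, an FPKM ratio of at least 2 or at most 0.5 among genes with at least 20 recovered reads over both libraries. The read rule called 4.85% of 12895 protein-coding genes higher and 10.8% lower, 15.6% in either direction. Of 43 members with enough reads, 2 were higher (4.65%) and 10 lower (23.3%) in the library labelled shTRIP13. The unclustered members were 7 lower and 0 higher of 17, and the clustered ones 3 lower and 2 higher of 26. Fewer reads than in the shcon library were found for 32 of the 43 members (74.4%), against 43.9% of all protein-coding genes with enough reads. The members were chosen by name with earlier results of these data known, so these shares are a description. A gene that reached 20 reads only through the library where it is high had to differ.

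**Figure D1:**
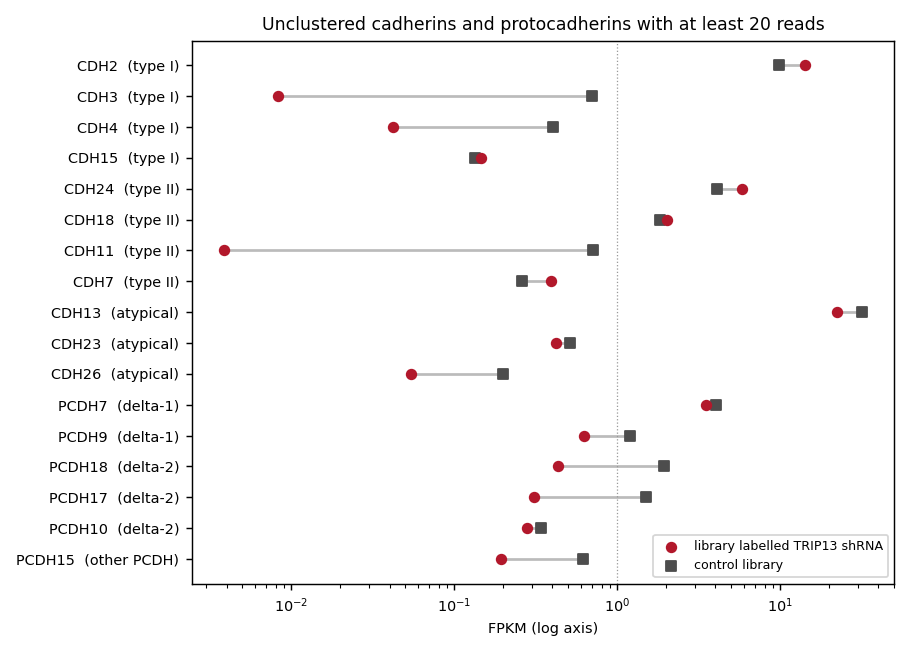
FPKM on a log axis of the 17 unclustered members with at least 20 reads, by class, in the library labelled shTRIP13 (circles) and the shcon library (squares), 1 library each, with a dotted line at 1 FPKM. CDH13 and CDH2 lie at the right in both libraries, while CDH11, CDH3 and CDH4 have the widest gaps, each with the lower value in the library labelled shTRIP13.

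Among the type I cadherins, CDH2 was the one gene with a high level and it was higher in the library labelled shTRIP13. CDH2 (ENSG00000170558, hg38 chromosome 18, 27950966 to 28177446, minus strand) had 14.2 FPKM in the library labelled shTRIP13 against 9.76 FPKM in the shcon library, from 1359 reads in shTRIP13 and 936 in shcon. This is a ratio of 1.45 with a 95% exact counting interval of 1.33 to 1.58, and a log2 ratio of 0.50, short of the size rule. The other type I genes were low, and 2 of them were lower in the library labelled shTRIP13. P-cadherin (CDH3) had 1 read in shTRIP13 against 85 in shcon, a ratio of 0.0118 (0.000294 to 0.0673), and R-cadherin (CDH4), known from the retina, had 6 in shTRIP13 against 57 in shcon, a ratio of 0.105 (0.0371 to 0.244). M-cadherin (CDH15), the cadherin of skeletal muscle, had 13 reads in shTRIP13 against 12 in shcon and a difference was not detectable at this depth. E-cadherin (CDH1), the epithelial cadherin, had 1 read in shTRIP13 against 2 in shcon. CDH2 accordingly made up 98.6% of the summed type I FPKM in the library labelled shTRIP13 and 88.6% in the shcon library.

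The type II cadherins differed in both directions: CDH24 and CDH7 were higher and CDH11 lower in the library labelled shTRIP13. CDH24, a type II cadherin that binds catenins, had 5.82 FPKM in shTRIP13 against 4.09 in shcon, from 423 reads in shTRIP13 and 297 in shcon, a ratio of 1.42 (1.22 to 1.66). CDH18, found in the central nervous system, had 2.03 FPKM in shTRIP13 against 1.83 in shcon, and the interval of its ratio of 1.11 (0.899 to 1.37) included 1. CDH7 had 110 reads in shTRIP13 against 73 in shcon, a ratio of 1.51 (1.11 to 2.05), at levels of 0.391 FPKM in shTRIP13 and 0.259 in shcon. CDH11, the mesenchymal and osteoblast cadherin, went the other way: a lone read was found in the library labelled shTRIP13 and 184 in the shcon library (0.00386 FPKM in shTRIP13 against 0.710 in shcon), a ratio of 0.00543 (0.000137 to 0.0307). For CDH11 and every other member, RNA from fewer cells of a kind and less RNA per cell cannot be told apart in a bulk sample. VE-cadherin (CDH5), the endothelial cadherin, had 0 reads in the library labelled shTRIP13 against 6 in the shcon library and an exact counting interval of the ratio that reached up to 0.849. CDH8, CDH9 and CDH22 had no reads in either library, and CDH6, CDH10, CDH12 and CDH19 had at most 2 in a library. CDH20 had 1 read in shTRIP13 against 7 in shcon.

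Several markers of mesenchymal and endothelial cells were lower beside CDH11 and CDH5 in the library labelled shTRIP13. Of the 5 fibroblast and pericyte markers, which mark cells that also use CDH11, PDGFRB had 1.74 FPKM in shTRIP13 against 12.4 in shcon, LUM 2.08 in shTRIP13 against 7.55 in shcon and DCN 0.133 in shTRIP13 against 1.55 in shcon. COL1A1 stood at 27.4 in shTRIP13 against 29.4 in shcon and RGS5 at 0.469 in shTRIP13 against 0.552 in shcon. Of the 5 genes, 3 were thus far lower and 2 close in level, and they summed to 31.8 FPKM in the library labelled shTRIP13 against 51.4 in the shcon library. Of the 6 endothelial markers, VWF had 6 reads in shTRIP13 against 75 in shcon and PECAM1 1 in shTRIP13 against 45 in shcon. TEK had 9 reads in shTRIP13 against 38 in shcon and KDR 362 in shTRIP13 against 575 in shcon. ERG went the other way with 14 reads in shTRIP13 against 11 in shcon, CLDN5 had 1 in each library, and the list summed to 3.09 FPKM in shTRIP13 against 5.69 in shcon, most of it KDR. No list but that of the oligodendrocyte lineage summed higher in the library labelled shTRIP13. The 6 epithelial markers summed to 1.45 FPKM in shTRIP13 against 2.32 in shcon. Of the 7 neuronal markers, STMN2 was at 0 in both libraries and the list summed to 9.78 FPKM in shTRIP13 against 11.1 in shcon. The 5 astrocyte markers summed to 8.07 FPKM in shTRIP13 against 11.1 in shcon, most of it SLC1A3, with AQP4 at 0. The 6 of the oligodendrocyte lineage summed to 19.0 in shTRIP13 against 15.98 in shcon with MOG at 0. Most of that sum was CSPG4, while OLIG2 had 0.339 FPKM in shTRIP13 against 2.72 in shcon. The 5 microglial markers summed to 4.001 in shTRIP13 against 8.21 in shcon with AIF1 and CX3CR1 at 0. Among them TMEM119 had 0.696 FPKM in shTRIP13 against 4.40 in shcon, and CSF1R 3.31 in shTRIP13 against 3.75 in shcon. PTPRC had 0 reads in shTRIP13 against 11 in shcon. The part of such cells or programmes in the cadherin values was not tested.

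CDH13 (T-cadherin), an atypical cadherin held at the membrane by a lipid anchor and lacking the catenin-binding tail, was the member with the most reads. CDH13 (ENSG00000140945, chromosome 16, 82626803 to 83800640, plus strand) had 22.4 FPKM in the library labelled shTRIP13 against 31.9 FPKM in the shcon library. With 4846 reads in shTRIP13 and 6923 in shcon, its ratio was 0.700 (0.675 to 0.726) and its log2 ratio -0.50. The CDH13 and CDH2 differences were opposite, so their balance differed between the libraries, a comparison that no scaling of a library can change. The FPKM of CDH13 was 1.58 times that of CDH2 in the library labelled shTRIP13 and 3.27 times in the shcon library, a ratio of ratios of 0.482 with a counting interval of 0.440 to 0.529. The FPKM of PCDHGC3 was 0.644 times that of CDH2 in shTRIP13 against 1.31 times in shcon, a ratio of ratios of 0.492 (0.436 to 0.554). CDH24 stood at 0.411 times CDH2 in shTRIP13 against 0.419 times in shcon, a ratio of ratios of 0.981 (0.825 to 1.17).

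Of the other atypical cadherins, CDH23, which forms the tip links of inner ear hair cells together with PCDH15, had 151 reads in shTRIP13 against 185 in shcon, a ratio of 0.816 (0.654 to 1.02) whose interval includes 1 and lies below 1.05. Of its exon length, 18.9% lies under another annotated gene on the opposite strand, and the strand setting of the counting is not known. CDH26 had 6 reads in shTRIP13 against 22 in shcon, a ratio of 0.273 (0.0905 to 0.694). The intestinal CDH17 had 3 in shTRIP13 against 11 in shcon and the kidney cadherin CDH16 had 2 in each.

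All 6 unclustered protocadherins with enough reads had fewer of them in the library labelled shTRIP13. Of all protein-coding genes with enough reads, 43.9% had fewer there. The unclustered protocadherins summed to 5.39 FPKM in shTRIP13 against 9.80 in shcon. PCDH18 (ENSG00000189184, chromosome 4, 137518918 to 137532494, minus strand), a delta-2 protocadherin, had 0.432 FPKM in the library labelled shTRIP13 against 1.93 FPKM in the shcon library. Counts of 56 reads in shTRIP13 against 250 in shcon gave a ratio of 0.224 (0.165 to 0.300). PCDH17 (ENSG00000118946, chromosome 13, 57631810 to 57729311, plus strand), a delta-2 protocadherin of developing brain circuits, had 0.310 FPKM in shTRIP13 against 1.51 in shcon. Its ratio was 0.206 (0.149 to 0.280) from 50 reads in shTRIP13 and 243 in shcon, close to that of PCDH18. The third delta-2 gene with enough reads, PCDH10, had 55 reads in shTRIP13 against 67 in shcon, with an interval around its ratio of 0.821 that included 1 (0.564 to 1.19). PCDH8 and PCDH19 had no reads.

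The delta-1 protocadherins with enough reads, PCDH7 and PCDH9, were lower in the library labelled shTRIP13. PCDH7 had 3.51 FPKM in shTRIP13 against 4.04 in shcon, a ratio of 0.870 (0.792 to 0.955) from 834 reads in shTRIP13 and 959 in shcon. PCDH9 had 0.627 FPKM in shTRIP13 against 1.19 in shcon, a ratio of 0.527 (0.464 to 0.597) from 376 reads in shTRIP13 and 714 in shcon, just outside the read rule. PCDH1, an airway epithelial protocadherin, had 0 reads in shTRIP13 against 7 in shcon, with an interval of the ratio that reached up to 0.694. PCDH11X and its Y-linked copy PCDH11Y had no reads in either library. Outside the delta groups, PCDH15, the other tip-link protein, had 58 reads in shTRIP13 against 183 in shcon, a ratio of 0.317 (0.232 to 0.428). PCDH12, an endothelial protocadherin, had 4 in shTRIP13 against 14 in shcon, and PCDH20 had 0 in shTRIP13 against 1 in shcon, with 95.8% of its exon length shared with another gene. Over all unclustered members, 12 had between 1 and 19 reads in total, and 10 of these had fewer in the library labelled shTRIP13. The share over all genes with so few reads was not computed, so this count is not read as a result about the members. For the members without a read, the 3 reads that a count of 0 allows correspond to between 0.0102 and 0.0368 FPKM, depending on gene length.

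**Figure D2:**
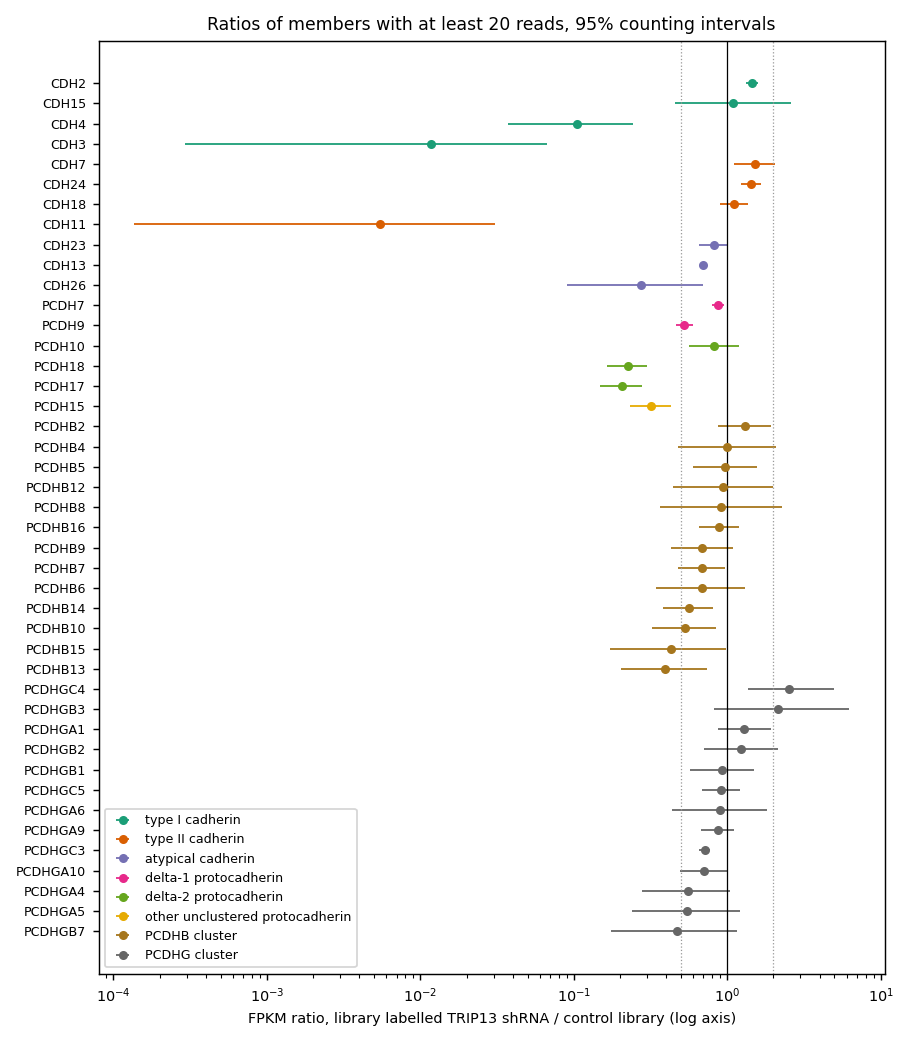
FPKM ratio of the library labelled shTRIP13 over the shcon library on a log axis for the 43 members with at least 20 reads, coloured by class, with 95% exact counting intervals (1 library each) and dotted lines at 0.5 and 2. CDH11, CDH3 and CDH4 lie farthest to the left. The 13 PCDHB genes have a median ratio of 0.688, and 8 of their intervals include 1. The 13 PCDHG genes have a median ratio of 0.895, and 11 of their intervals include 1. PCDHGC4 is the 1 member past 2 whose interval lies above 1.

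The clustered protocadherins lie in a row on chromosome 5. Each PCDHA and PCDHG gene has a variable first exon with its own promoter, spliced to constant exons shared by its cluster, and the PCDHB genes have no constant exons. In neurons the promoters are selected with the help of CTCF and cohesin, and they are known for a conserved element with a CGCT core. The bases before the RefSeq start (build GRCh38.p14) were matched for 70 of the 89 members, 47 of them clustered, and searched in the 250-base window on the strand of the gene. CGCT was found in 45 of 47 clustered promoters (95.7%) and in 48.1% of all 35116 promoters of the table, or 64.8% of all when either strand counts. The unclustered members had it in 14 of 23 promoters (60.9%) on the gene strand and in 22 of 23 (95.7%) on either strand, so that counted on either strand its share did not set the clustered promoters apart from them. It was found in 23 of 24 clustered promoters of genes with at least 20 reads and in 22 of 23 with fewer. PCDHA9 and PCDHB8 lacked it in this window.

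Around that core each cluster has its own word, here the commonest 8 letters that contain CGCT, chosen from these promoters. ATGTCGCT stood in 9 of 13 PCDHA promoters and in 0.117% of all promoters. GTGGCGCT stood in 12 of 14 PCDHB promoters and 0.524% of all, and GCCGCTGT in 11 of 20 PCDHG promoters and 0.644% of all. The promoters below show the most read genes of PCDHG and PCDHB beside PCDHGB5 and PCDHA4, which had no reads in either library. PCDHGB5 holds the same word as PCDHGC3 and PCDHGA9, and PCDHA4 holds that of the PCDHA cluster. All 9 clustered promoters that hold the PCDHA word belong to PCDHA genes, and no PCDHA gene reached 20 reads. The word stood in 0 of 24 clustered promoters of genes with at least 20 reads and in 6 of 12 without a read. Those counts follow from the clusters and cannot tell of a link between the word and the reads. Capitals mark the word of the cluster, and each sequence runs 5′ to 3′ up to the base before the RefSeq start.

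PCDHGC3 (chr5:141475716-141475965, plus strand): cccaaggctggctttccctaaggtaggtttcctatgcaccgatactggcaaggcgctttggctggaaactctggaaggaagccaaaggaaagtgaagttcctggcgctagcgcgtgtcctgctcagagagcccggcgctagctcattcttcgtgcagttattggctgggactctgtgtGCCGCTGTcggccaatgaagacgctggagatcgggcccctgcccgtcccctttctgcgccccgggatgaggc
PCDHGA9 (chr5:141402528-141402777, plus strand): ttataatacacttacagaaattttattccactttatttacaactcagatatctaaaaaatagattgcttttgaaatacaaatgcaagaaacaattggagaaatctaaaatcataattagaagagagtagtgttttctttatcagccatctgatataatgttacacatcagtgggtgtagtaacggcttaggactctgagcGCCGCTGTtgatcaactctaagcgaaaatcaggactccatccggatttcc
PCDHGB5 (chr5:141397697-141397946, plus strand): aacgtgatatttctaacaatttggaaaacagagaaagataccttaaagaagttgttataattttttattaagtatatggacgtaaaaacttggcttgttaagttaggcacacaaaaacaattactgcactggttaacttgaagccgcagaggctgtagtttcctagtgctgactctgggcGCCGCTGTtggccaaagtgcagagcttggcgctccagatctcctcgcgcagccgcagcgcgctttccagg
PCDHB16 (chr5:141182137-141182386, plus strand): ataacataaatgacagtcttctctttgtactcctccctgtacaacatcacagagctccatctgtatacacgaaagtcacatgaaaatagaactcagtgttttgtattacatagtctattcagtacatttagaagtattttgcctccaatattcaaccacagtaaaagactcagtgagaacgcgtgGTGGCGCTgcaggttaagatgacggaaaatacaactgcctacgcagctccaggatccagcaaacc
PCDHB7 (chr5:141172394-141172643, plus strand): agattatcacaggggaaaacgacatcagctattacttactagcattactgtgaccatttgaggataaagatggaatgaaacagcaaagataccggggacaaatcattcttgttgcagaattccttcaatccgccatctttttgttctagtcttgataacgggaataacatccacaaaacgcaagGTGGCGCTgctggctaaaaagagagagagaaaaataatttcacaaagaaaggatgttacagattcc
PCDHA4 (chr5:140806818-140807067, plus strand): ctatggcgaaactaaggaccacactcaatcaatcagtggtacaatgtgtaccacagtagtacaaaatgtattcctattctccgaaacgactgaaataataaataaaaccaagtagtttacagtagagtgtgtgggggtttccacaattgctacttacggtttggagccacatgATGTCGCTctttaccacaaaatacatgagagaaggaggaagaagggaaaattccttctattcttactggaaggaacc

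No entry was matched for CDH1, CDH3, CDH5, CDH6, CDH11, CDH13, CDH15, CDH16, CDH17, CDH22, CDH24, PCDH10, PCDH20, PCDHA3, PCDHA13, PCDHB6, PCDHB11, PCDHGA12 and PCDHGC5.

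The 3 clusters differed sharply in how many of their genes were read. PCDHA was nearly silent, with 1 read in the library labelled shTRIP13 (PCDHA1) and 5 in the shcon library (2 each for PCDHA1 and PCDHA2, 1 for PCDHA12), and 12 of its 15 genes had none. PCDHB and PCDHG were read broadly, with 13 of 16 and 13 of 22 genes reaching 20 reads over both libraries. At least 1 read in each library was found for 34 of the 53 clustered genes. Summed over each cluster, PCDHB had 439 reads in shTRIP13 against 589 in shcon, a ratio of 0.745 (0.657 to 0.845), and PCDHG had 1496 in shTRIP13 against 1944 in shcon, a ratio of 0.770 (0.719 to 0.824).

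**Figure D3:**
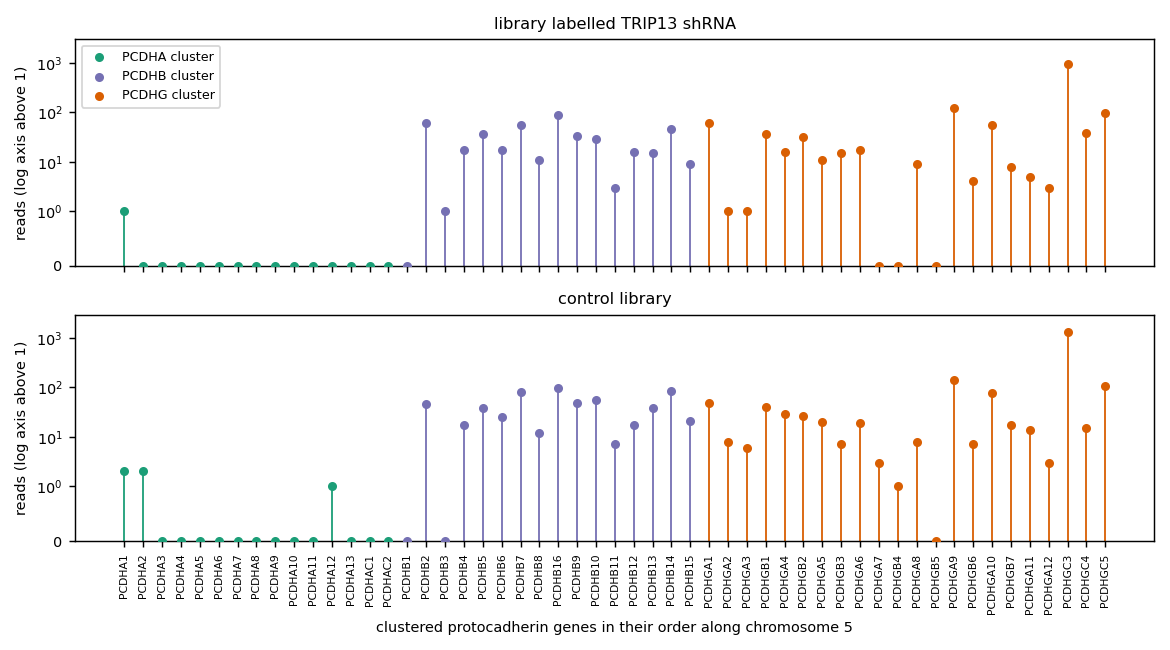
Recovered reads of the 53 clustered protocadherins, in their order along chromosome 5, in the library labelled shTRIP13 (top) and the shcon library (bottom), 1 library each, on an axis that is logarithmic above 1 read. PCDHA lies at 0 to 2 reads, the 13 PCDHB genes with at least 20 reads lie between 9 and 98, and PCDHGC3 stands above all at 960 in shTRIP13 and 1345 in shcon.

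PCDHGC3, a C-type gene at the end of the PCDHG cluster, had the highest level of the clustered genes in both libraries and was lower in the library labelled shTRIP13. PCDHGC3 (ENSG00000240184, chromosome 5, 141475947 to 141512979, plus strand) had 9.12 FPKM in the library labelled shTRIP13 against 12.8 FPKM in the shcon library. The 960 reads in shTRIP13 against 1345 in shcon gave a ratio of 0.714 (0.656 to 0.776), and it held 64.2% of the PCDHG reads in shTRIP13 and 69.2% in shcon. Without it the other PCDHG genes had 536 reads in shTRIP13 against 599 in shcon, a ratio of 0.895 (0.795 to 1.01). That interval includes 1 but lies below 1.05, the ratio of a gene at an equal share of both libraries. Of the neighbouring C-type genes, PCDHGC5 had 98 reads in shTRIP13 against 107 in shcon, a ratio of 0.916 (0.689 to 1.22), and PCDHGC4 had 38 in shTRIP13 against 15 in shcon, a ratio of 2.53 (1.36 to 4.96). PCDHGC4 was thus opposite in direction to PCDHGC3 beside it, at 0.394 FPKM in shTRIP13 and 0.156 in shcon. The C-type genes PCDHAC1 and PCDHAC2 of the PCDHA cluster had no reads.

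Among the 19 PCDHGA and PCDHGB genes, PCDHGA9 led in both libraries with 123 reads in shTRIP13 against 142 in shcon at 1.34 FPKM in shTRIP13 and 1.54 in shcon, a ratio of 0.866 (0.675 to 1.11). PCDHGA10 had 56 in shTRIP13 against 79 in shcon, PCDHGA1 62 in shTRIP13 against 48 in shcon, PCDHGB1 37 in shTRIP13 against 40 in shcon and PCDHGB2 32 reads in shTRIP13 against 26 in shcon. The counting intervals of these 5 genes include 1, though that of PCDHGA10 (0.494 to 1.01) lies below 1.05. Together they held 77.5% of the PCDHGA and PCDHGB reads in the library labelled shTRIP13 and 70.2% in the shcon library. PCDHGB7 had 8 reads in shTRIP13 against 17 in shcon and PCDHGB3 15 in shTRIP13 against 7 in shcon. Both passed the read rule, in opposite directions, with intervals that include 1 (0.176 to 1.15 and 0.822 to 6.21). PCDHGB5, between PCDHGA8 and PCDHGA9, had no reads, PCDHGA7 had 0 in shTRIP13 against 3 in shcon, and PCDHGB4 had 0 in shTRIP13 against 1 in shcon. PCDHGA4, PCDHGA5 and PCDHGA6 had 16, 11 and 17 reads in shTRIP13 against 29, 20 and 19 in shcon, with intervals that include 1, that of PCDHGA4 (0.280 to 1.05) only barely. Of all 22 PCDHG genes, 9 stayed under 20 reads in total.

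The PCDHB reads were spread over many genes, and 11 of the 13 genes with enough reads had fewer in the library labelled shTRIP13, beside 43.9% of all protein-coding genes with enough reads. For PCDHB5 (37 in shTRIP13 against 38 in shcon), PCDHB8 (11 in shTRIP13 against 12 in shcon) and PCDHB12 (16 in shTRIP13 against 17 in shcon) the difference was 1 read. PCDHB16 had the most, 87 reads in shTRIP13 against 98 in shcon, a ratio of 0.888 (0.657 to 1.20), and 24.9% of its exon length overlaps other genes. PCDHB7 had 56 reads in shTRIP13 against 82 in shcon, a ratio of 0.683 (0.477 to 0.971), and PCDHB14 had 47 in shTRIP13 against 84 in shcon, a ratio of 0.560 (0.383 to 0.809). PCDHB2 had 61 reads in shTRIP13 against 47 in shcon, the 1 gene of the cluster with enough reads and more of them in the library labelled shTRIP13, with an interval of 0.873 to 1.94. PCDHB10 had 29 reads in shTRIP13 against 55 in shcon, a ratio of 0.527 (0.324 to 0.841). PCDHB13 (15 in shTRIP13 against 38 in shcon, ratio 0.395, 0.202 to 0.735) and PCDHB15 (9 in shTRIP13 against 21 in shcon, ratio 0.429, 0.173 to 0.976) were the 2 past the read rule. The remaining genes with enough reads, PCDHB4, PCDHB5, PCDHB6, PCDHB8, PCDHB9 and PCDHB12, had intervals that include 1. PCDHB1, the first gene of the cluster, had no reads, PCDHB3 had 1 in shTRIP13 against 0 in shcon and PCDHB11 had 3 in shTRIP13 against 7 in shcon.

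How reads were assigned bears on these levels. In GENCODE release 29, whose positions and exon lengths equal those of the file, between 27.6% and 64.4% of the exon length of a PCDHG gene is shared with other genes, mostly the constant exons. PCDHGB5 has 2181 such bases (45.0% of its length) and 0 reads in both libraries, so no read of the exons it shares was counted for it. Where along a gene the reads of the other PCDHG genes lie cannot be told from gene totals. Where reads of shared exons go uncounted, FPKM is still divided by the whole length, which lowers the level and leaves the ratio between libraries as it is. Whether this holds for every PCDHA and PCDHG gene was not tested. PCDHB genes are close copies: a median of 14.2% of their 50-base words, and 45.8% for PCDHB8, also occur in transcripts of other genes of these families. Values of single PCDHB genes are therefore uncertain.

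The catenins through which classical cadherins reach actin were expressed in both libraries with small differences. Of 19 catenin and junction plaque genes, 9 passed the FPKM filter, and 0 were higher and 0 lower by the size rule. Their median log2 ratio was -0.03, beside 0.12 over all protein-coding genes past the filter. Beta-catenin (CTNNB1) had 26.2 FPKM in shTRIP13 against 27.96 in shcon, alpha-catenin (CTNNA1) 40.3 in shTRIP13 against 41.2 in shcon and p120-catenin (CTNND1) 20.3 in shTRIP13 against 17.1 in shcon. The alpha-catenin relative CTNNAL1 was the highest in ratio at 28.1 FPKM in shTRIP13 against 20.3 in shcon, and the adhesion receptor NECTIN2 the lowest at 13.6 in shTRIP13 against 19.6 in shcon. Of 26 other superfamily and desmosomal genes, the plaque gene DSP included, 8 passed the filter, and 0 were higher and 1 lower. The lower gene was CELSR1, a planar polarity cadherin, at 2.34 FPKM in shTRIP13 against 6.38 in shcon. CLSTN3 followed at 4.04 FPKM in shTRIP13 against 8.18 in shcon, while desmoglein 2 (DSG2) had 19.0 in shTRIP13 against 12.0 in shcon and the giant cadherin FAT1 26.5 in shTRIP13 against 17.3 in shcon.

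All 5 CDH1 repressors past the filter had log2 ratios below 0, beside 39.6% of all protein-coding genes past the filter. Their median was -0.52, and 0 of them passed the size rule. SNAI2 had 34.9 FPKM in shTRIP13 against 61.7 in shcon, ZEB2 4.08 in shTRIP13 against 7.18 in shcon and ZEB1 3.93 in shTRIP13 against 6.05 in shcon, beside the 1 read of CDH1 in shTRIP13 and its 2 reads in shcon. Of 10 cadherin proteases past the filter, 0 passed the size rule. The ectodomain sheddase ADAM10 had 8.60 FPKM in shTRIP13 against 9.78 in shcon, its relative ADAM17 had 4.27 in shTRIP13 against 6.53 in shcon, and the gamma-secretase subunit PSEN2 had 12.7 in shTRIP13 against 7.40 in shcon. All 16 chromatin regulators of the clustered genes passed the filter and 0 passed the size rule, with a median of 0.12. CTCF had 6.86 FPKM in shTRIP13 against 5.22 in shcon, the cohesin subunit SMC1A 23.2 in shTRIP13 against 13.9 in shcon, the DNA methyltransferase DNMT1 31.8 in shTRIP13 against 17.6 in shcon and DNMT3A 0.768 in shTRIP13 against 1.73 in shcon. The 11 genes of the WAVE complex and the focal adhesion kinases, to which clustered protocadherins couple, had a median of 0.01 and 0 past the size rule, from WASF1 at 7.28 FPKM in shTRIP13 against 10.6 in shcon to WASF3 at 2.44 in shTRIP13 against 1.49 in shcon. The medians of the proteases and of the WAVE list lay below 0 under each of the 3 other scalings tried, and that of the chromatin regulators with the median ratio set to 1, so no direction is read for these lists.

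**Figure D4:**
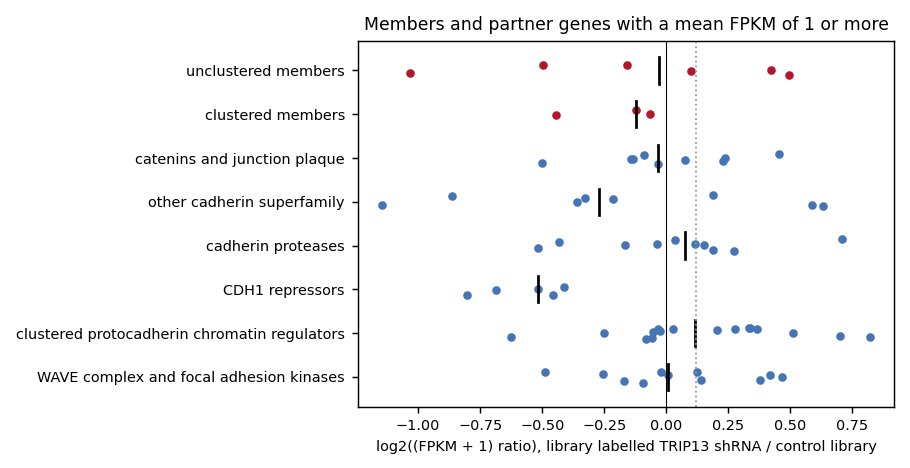
Log2 ratio of FPKM + 1, library labelled shTRIP13 over shcon library, of members (red) and partner genes (blue) at an average FPKM of 1 or more, with a bar at each median and a dotted line at 0.12, the median of all protein-coding genes past the filter. All 5 CDH1 repressors lie left of 0, and the other partner lists spread to both sides.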

How the data were processed

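FPKM values were deposited by the authors for 2 libraries in 1 table with gene names, biotypes, positions on hg38 and gene lengths. HISAT2 2.0.5, featureCounts 1.5.0-p3 and edgeR are named per the submitters' processing notes, and their roles and settings, the annotation and the use of strand are, in the sources used here, not given. FPKM times gene length was a whole multiple of 1 step, 51.6, in both libraries, for 100% of values within 0.001 of a read, which gave the recovered reads. The common step means that FPKM is not corrected for depth, so a gene at an equal share of both libraries has a ratio of 1.05. The positions and exon lengths of 58735 genes equalled those of GENCODE release 29. Log2 ratios used a pseudocount of 1, and the filter was an average FPKM of at least 1.

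Intervals of ratios are exact 95% Clopper-Pearson intervals of the split of reads. They and the floor of 3 reads cover counting error only, since PCR copies cannot be told from independent molecules. With 1 library per group there was no test. The members, the classes, the partner and marker lists, the rules and the alternatives were chosen with earlier results of these data known. Named genes are all members with a mean FPKM of 1 or more or past the read rule, the 5 most read genes of each cluster, and up to 3 partner genes at each end of a list; CTNNB1, CTNNA1, CTCF and other members are named beyond that rule, a choice made after their values were seen. Recovery of reads, intervals and both rules were run on simulated counts with counting error only. The simulation held no variation between replicate libraries, so it cannot tell how the rules behave under it. Calculations ran in Python 3.11.15 with scipy 1.17.1 for intervals, pandas 2.3.3 and numpy 2.4.6 for tables, and matplotlib 3.10.9 for figures.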

Additional observations from a re-analysis of the deposited data

Results flagged for a closer look

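Outside the protein-coding members, 17 rows carry a cadherin or protocadherin name, among them pseudogenes and antisense genes, and 13 of these had no reads. PCDHB17P and PCDHB18P, transcribed pseudogenes in the PCDHB cluster, were above the 3 reads that a count of 0 allows. PCDHB17P had 10 reads in shTRIP13 against 15 in shcon, and PCDHB18P had 15 reads in shTRIP13 against 13 in shcon. As close copies of PCDHB genes they may share reads with them in the authors' counting, which was not tested.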

How the results depend on the processing

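No paired analysis was possible because shTRIP13 and shcon have 1 library each. Direction was checked for 27 members. These had a mean FPKM of 1 or more, passed the read rule or were among the 5 most read of PCDHB or PCDHG. Of the 27, 0 turned direction under pseudocounts of 0.1 and 5, TPM, own totals and a median ratio of 1. A pseudocount cannot turn a direction. The 3 scalings shift log2 ratios by -0.12, -0.08 and -0.14, all downward. Members lower in the library labelled shTRIP13 therefore could not turn. Only CDH2, CDH24, CDH18, PCDHB2, PCDHGA1, PCDHGB3 and PCDHGC4 could have done so. In size, 81 of the alternative log2 ratios lay inside the counting interval of the main value and 54 outside it. Other members named in the text, CDH7 and CDH15 among them, were not checked. By the size rule, 0 members were higher under every alternative. The count of lower members was 0 with a pseudocount of 5, 0 with a mean FPKM of at least 5 and 4 after rescaling to TPM, which lets 29 members past the filter, against 1 otherwise. By the read rule, the 10 lower members became 12 under own totals and TPM, with PCDH9 and PCDHB10 added, and 13 with the median ratio set to 1, with PCDHGA5 added. They were 14 with at least 10 reads and 7 with at least 50. The 2 higher members became 1 under TPM, 1 with the median ratio set to 1, PCDHGC4 alone in both, and 1 with at least 50 reads. Clustered genes with enough reads numbered 16 at 50 reads and 30 at 10, against 26. The PCDHG read ratio was 0.710 under TPM, 0.698 with the median ratio set to 1 and 0.895 without PCDHGC3. The clustered median log2 ratio was -0.45 with a mean FPKM of at least 5, where PCDHGC3 alone is left, and the unclustered one was -0.46 under TPM, against -0.03. TRIP13 had a log2 ratio of 0.74 with a pseudocount of 5 and 0.77 with the median ratio set to 1. Depth limits the members with few reads, whose intervals are wide.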
